A study of Rattus norvegicus with 10 samples.

Results

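Collagen chains and collagen-processing genes were followed across lung libraries of rats lacking Cmg2 and of wild-type (WT) rats. The genes taken were the rows of the authors' deposited table named Col16a1, Col11a1, P4ha3 or Pcolce, and all other rows with a collagen chain symbol. This gave 8 of the 1319 genes in the table, which were the 6 collagen chains Col8a1, Col8a2, Col16a1, Col12a1, Col11a1 and Col6a4 and the processing genes P4ha3 and Pcolce. RefSeq names 44 collagen chain genes in the rat, and the other chains were not analysed here. These genes were selected on the authors' own p for Cmg2-KO against WT, since their deposited table lists only genes with an unadjusted p under 0.05, which is 6.63% of the genes that they adjusted over. Their genotype differences are therefore given as a description, with no test. Their p-values in the authors' deposited table ran from 0.000461 for Col8a2 to 0.0392 for Pcolce, just inside the highest p of any listed gene, 0.04998.

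The lungs came from 8-week-old Sprague Dawley rats, an outbred strain, with 5 libraries from Cmg2-KO rats and 5 from WT rats. Cmg2, also called Antxr2, encodes a transmembrane anthrax toxin receptor that binds matrix proteins, among them laminin and collagens IV and VI, and in humans its loss causes hyaline fibromatosis syndrome, in which hyaline matrix builds up in tissues. The labels do not say how the allele was made or whether the libraries of a genotype came from separate animals, so the spread between them may be technical. The series' design text gives a larger number per genotype, of which 5 were analysed. Antxr2 itself was not analysed here, so the loss of the targeted transcript could not be examined. Values are scaled counts, which are read numbers per gene after division by a size factor of the library. The listed genes summed to between 1386578 and 1531531 scaled counts per library, and the total depth is unknown. The airway gene Scgb1a1 and the alveolar type 2 gene Sftpb, both defining genes of lung epithelium, were abundant in every library, with at least 84205 and 42133 scaled counts.

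Collagens are built from chains that wind into a triple helix inside the cell. Prolyl hydroxylases stabilise the helix, and propeptides are trimmed outside the cell so that fibril-forming types can assemble. Fibrillar collagens give lung its tensile strength, fibril-associated (FACIT) collagens decorate those fibrils, and network types such as collagen VIII form sheets around vessels and other structures.

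In Cmg2-KO lung, 7 of the 8 genes had a higher mean than in WT lung, and 1, Col8a1, had a lower one. The type VIII chains went opposite ways, with Col8a2 higher by 38.2% and Col8a1 lower (a change of -33.3%) in Cmg2-KO. The FACIT chains Col16a1 and Col12a1 were higher by 19.7% and 23.4%, and the processing genes P4ha3 and Pcolce by 22.4% and 22.0%. Among all 1308 genes tested, 48.2% were higher and 51.8% lower in Cmg2-KO. The median log2 fold change was 0.31 for the 8 genes and -0.15 for all genes tested. In size, the median absolute log2 fold change was 0.32 for the 8 genes, against 0.47 for all genes tested. None of the 8 passed an adjusted p of 0.05 in limma (0.229% of the genes tested did), in edgeR or in DESeq2, or in the authors' deposited table (5.46% of its genes did), while all 8 had an unadjusted limma p under 0.05, as did 79.1% of the genes tested. The genotypes overlapped at all 8 genes, whereas 16.3% of the listed genes had no overlap between Cmg2-KO and WT libraries.

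**Figure D1:**
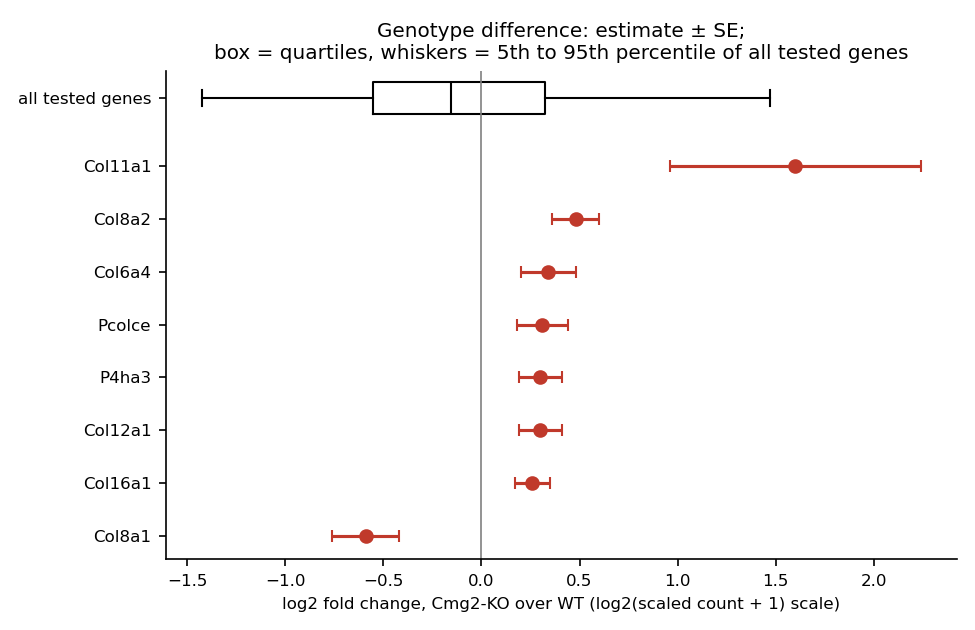
Difference between genotypes for each gene, as the log2 fold change of (scaled count + 1) in Cmg2-KO relative to WT, estimate ± SE from 5 libraries per genotype, with the quartiles and the 5th to 95th percentiles of all 1308 tested genes above. Col8a1 lies at -0.59, Col11a1 at 1.60 with the widest SE, and the other genes between 0.26 and 0.48.

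Type VIII collagen is a short-chain network collagen made by vascular smooth muscle and endothelial cells, and its α1 and α2 chains can form trimers of 1 chain type or of both. Col8a2 (chromosome 5, 144308611 to 144335172, plus strand, as the authors' table gives coordinates, whose build is not given in the sources used here) encodes the α2 chain. It had 290.3, 321, 349, 379 and 319 scaled counts in Cmg2-KO 1 to 5, against 215, 278, 292, 211 and 203 in WT 1 to 5. Only WT 3 reached the Cmg2-KO range, and it did so by lying just above Cmg2-KO 1. The means were 332 ± 33.7 in Cmg2-KO and 239.9 ± 41.6 in WT (SD, n = 5 each), a log2 fold change of 0.48 ± 0.12 (SE).

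Col8a1 (chromosome 11, 44877859 to 45007891, plus strand), the α1 chain, had 156, 150.2, 162, 251 and 182 scaled counts in Cmg2-KO 1 to 5, against 302, 237, 205, 300.3 and 306 in WT 1 to 5. All Cmg2-KO libraries other than Cmg2-KO 4 lay below every WT library. The means were 180.0 ± 41.2 in Cmg2-KO and 270.0 ± 46.2 in WT (SD, n = 5 each), a log2 fold change of -0.59 ± 0.17 (SE).

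The ratio of Col8a1 to Col8a2 within a library does not depend on how libraries are scaled. It was 0.536, 0.468, 0.464, 0.661 and 0.570 in Cmg2-KO 1 to 5, against 1.40, 0.851, 0.703, 1.42 and 1.51 in WT 1 to 5. Every Cmg2-KO library lay below every WT library. Both chains were chosen for their genotype difference and went opposite ways, so their ratio had to differ, and its separation is only a description. The same separation occurred in 28.2% of all 258656 pairs of a lower and a higher listed gene of which neither separated the genotypes by itself. The ratio averaged 0.540 ± 0.0812 in Cmg2-KO and 1.18 ± 0.371 in WT (SD, n = 5 each). The log2 difference was -1.07. This ratio was chosen after its values were seen. The sum of both chains averaged 512 ± 70.7 scaled counts in Cmg2-KO and 509.9 ± 7.66 in WT. In WT the sum spanned 497 to 517, since WT 2 and WT 3, the libraries lowest in Col8a1, were highest in Col8a2. In Cmg2-KO it spanned 446 to 630, with Cmg2-KO 4 highest in both chains.

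**Figure D2:**
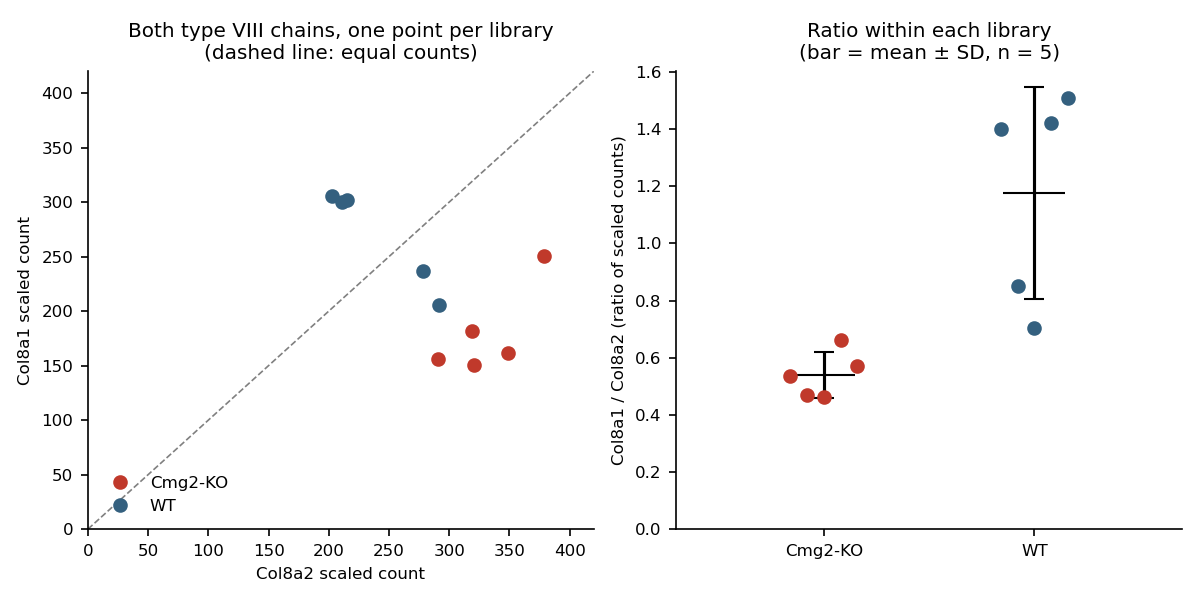
Left, scaled counts of Col8a1 (vertical) against Col8a2 (horizontal), 1 point per library, with a dashed line at equal counts. Right, the ratio Col8a1/Col8a2 per library with mean ± SD (n = 5 each): Cmg2-KO libraries lie between 0.464 and 0.661, all below the WT libraries at 0.703 to 1.51.

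The 250 bases before the start of Col8a2, Col8a1 and Col16a1 are shown because these are the chains whose levels diverged or tracked one another. They come from RefSeq (GRCr8, coordinates of that build), which matched 7 of the 8 genes. Capitals mark matches on either strand to any of 6 motifs. The letters searched were TATAAA for the box that positions transcription, GGGCGG for the GC box bound by Sp1, CACGTG for the E-box read by clock and other factors, TGANTCA for the site of the AP-1 dimer, CAGAC for the element recognised by SMAD proteins, and the CCAAT box by its own letters. Adjoining GC boxes can share bases.
Col8a2 (chr5:143870519-143870768, plus strand): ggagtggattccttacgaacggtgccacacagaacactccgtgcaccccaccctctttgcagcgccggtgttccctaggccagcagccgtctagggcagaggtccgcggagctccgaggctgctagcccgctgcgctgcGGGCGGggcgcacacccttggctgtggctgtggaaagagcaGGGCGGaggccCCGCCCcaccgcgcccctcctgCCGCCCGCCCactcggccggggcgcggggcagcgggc
Col8a1 (chr11:56246532-56246781, plus strand): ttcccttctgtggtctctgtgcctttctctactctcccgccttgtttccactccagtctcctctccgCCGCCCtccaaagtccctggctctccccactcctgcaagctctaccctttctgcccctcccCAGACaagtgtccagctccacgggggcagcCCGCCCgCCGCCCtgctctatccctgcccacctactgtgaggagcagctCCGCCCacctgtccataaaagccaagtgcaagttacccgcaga
Col16a1 (chr5:147672846-147673095, plus strand): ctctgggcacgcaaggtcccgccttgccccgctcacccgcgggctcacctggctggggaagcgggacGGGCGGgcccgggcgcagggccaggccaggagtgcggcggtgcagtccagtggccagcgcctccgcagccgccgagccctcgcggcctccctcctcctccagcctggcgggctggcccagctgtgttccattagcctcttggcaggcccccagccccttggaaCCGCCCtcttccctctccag
GC boxes matched 5 times before Col8a2, 4 times before Col8a1 and 2 times before Col16a1, and 32.4% of 27457 rat promoters of the same length hold at least 1. The only other match was 1 SMAD-binding element letter string before Col8a1, 122 bases before the start, which 42.8% of promoters hold. The CpG count was 25 for Col8a2, 9 for Col8a1 and 20 for Col16a1, against a median of 6 over all promoters. None of the 3 held the letters of the TATA box, CCAAT box, AP-1 site or E-box in this window, which 13.1%, 34.3%, 6.36% and 5.79% of promoters hold. A match is a run of letters and says nothing about binding.

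Col16a1 and Col12a1 were the only listed chains of 10 in the fibril-associated class. Col16a1 (chromosome 5, 148257642 to 148311645, plus strand) encodes the chain of type XVI collagen, which connects fibrils and cells to the surrounding matrix. It had 1642, 1746, 1866, 2177 and 2046 scaled counts in Cmg2-KO 1 to 5, against 1579, 1545, 1392, 1711 and 1692 in WT 1 to 5. Only Cmg2-KO 1 fell within the WT range. The means were 1895 ± 218 in Cmg2-KO and 1584 ± 129 in WT (SD, n = 5 each), a log2 fold change of 0.26 ± 0.09 (SE).

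Col12a1 (chromosome 8, 87040799 to 87158368, minus strand) encodes type XII collagen, which binds the surface of collagen I fibrils in mechanically loaded tissue. Its values were 5115, 6221, 4328, 5946 and 5273 scaled counts in Cmg2-KO 1 to 5, against 4526, 3626, 4120.2, 4477 and 5033 in WT 1 to 5. Only Cmg2-KO 3 fell within the WT range. The means were 5376 ± 744 in Cmg2-KO and 4356 ± 522 in WT (SD, n = 5 each), a log2 fold change of 0.30 ± 0.11 (SE), which was 0.18 with quantile normalization. The ratio of Col12a1 to Col16a1 within a library averaged 2.86 ± 0.487 in Cmg2-KO and 2.75 ± 0.269 in WT, a log2 difference of 0.05 that was smaller than the spread in either genotype.

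Col11a1 (chromosome 2, 216863428 to 217056523, plus strand), a minor fibrillar chain that nucleates collagen fibrils and is best known from cartilage, was near the limit of detection. It had 8.69, 20.2, 7.31, 14.2 and 16.6 scaled counts in Cmg2-KO 1 to 5, against 10.2, 2.07, 0, 4.05 and 9.47 in WT 1 to 5. These came from 7 to 23 reads per Cmg2-KO library and from 0 to 10 reads per WT library. The 0 in WT 3 allows up to 3 reads, or 3.33 scaled counts, for counting error only. The lower Cmg2-KO libraries, 1 and 3, overlapped WT 1 and WT 5. The log2 fold change was 1.60 ± 0.64 (SE), was 1.05 without WT 3 and ranged from 0.74 to 1.85 with the pseudocount and the scaling or model used, so its size is poorly determined. The listed cartilage markers numbered 1 of 15, Ucma, at 0.879 to 8.69 scaled counts in Cmg2-KO and 1.05 to 60.7 in WT, which is the opposite order to Col11a1.

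Col6a4 (chromosome 8, 114670631 to 114766803, minus strand) encodes an additional chain of the microfibrillar type VI collagen and is a broken gene in humans. It had 692, 1199, 907, 1070.1 and 1135 scaled counts in Cmg2-KO 1 to 5, against 790.3, 829.7, 803, 805 and 668 in WT 1 to 5. Cmg2-KO 1 lay inside the WT range, near WT 5 at the bottom of it, and the other Cmg2-KO libraries lay above every WT library. The means were 1000.4 ± 204 in Cmg2-KO and 779 ± 63.8 in WT (SD, n = 5 each), a log2 fold change of 0.34 ± 0.14 (SE). The spread was wider in Cmg2-KO, with a coefficient of variation of 20.4% against 8.19% in WT.

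P4ha3 (chromosome 1, 165295847 to 165330322, plus strand) encodes a catalytic α subunit of prolyl 4-hydroxylase, the enzyme that makes the hydroxyproline on which helix stability depends. Its values were 413, 426, 496, 469.8 and 486 scaled counts in Cmg2-KO 1 to 5, against 321, 338, 481, 394 and 337 in WT 1 to 5. WT 3 lay within the Cmg2-KO range, and the other WT libraries lay below every Cmg2-KO library. The means were 458 ± 36.8 in Cmg2-KO and 374 ± 65.7 in WT (SD, n = 5 each), a log2 fold change of 0.30 ± 0.11 (SE).

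Pcolce (chromosome 12, 22153983 to 22160337, plus strand) encodes the enhancer that speeds removal of the C-terminal propeptide of fibrillar procollagens by BMP1 and related proteinases. It had 926, 1064, 1075, 1053 and 1182 scaled counts in Cmg2-KO 1 to 5, against 721, 820.4, 776, 815 and 1211 in WT 1 to 5. WT 5 was above every other library of both genotypes, and the remaining WT libraries lay below every Cmg2-KO library. The means were 1060.0 ± 90.8 in Cmg2-KO and 869 ± 195 in WT (SD, n = 5 each), with a log2 fold change of 0.31 ± 0.13 (SE), and of 0.43 without WT 5.

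**Figure D3:**
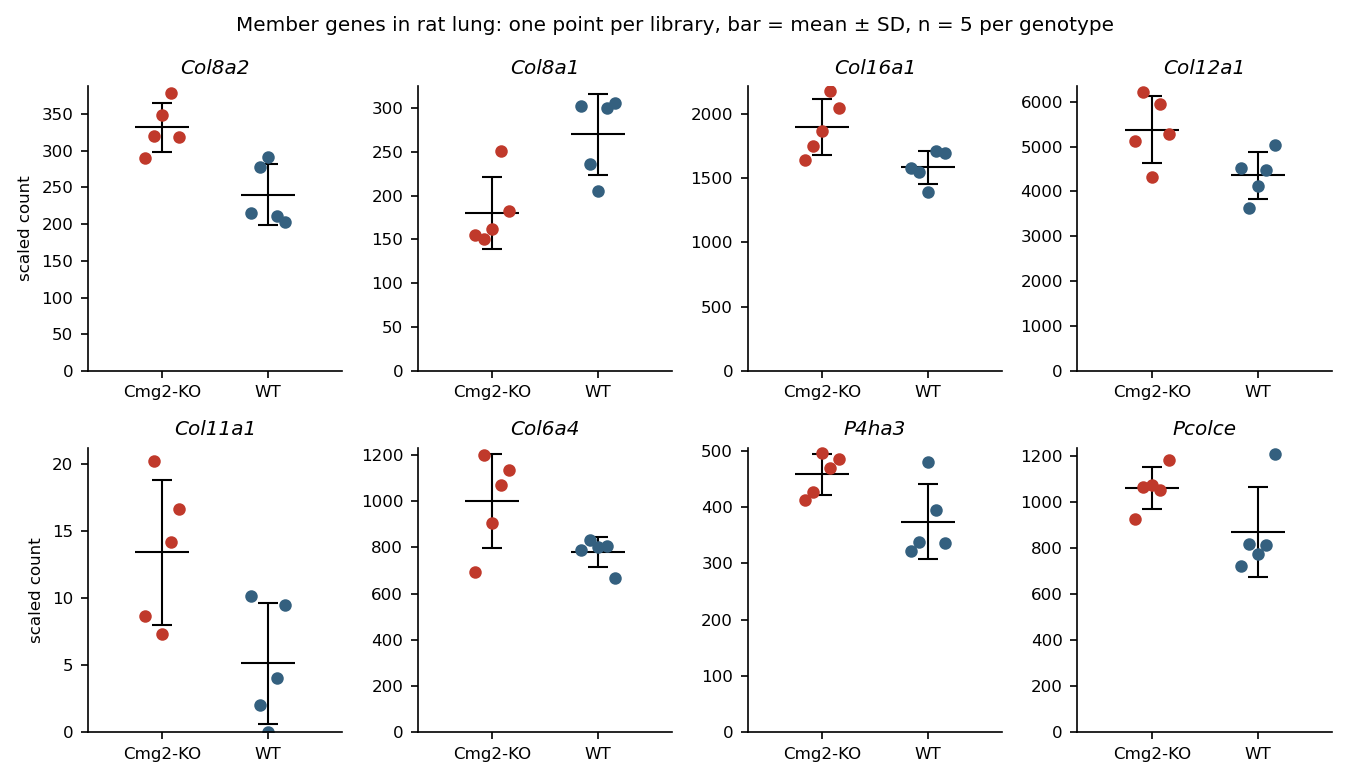
Scaled counts of the 8 genes, 1 point per library, Cmg2-KO left and WT right, with mean ± SD (n = 5 each) and axes from 0. Cmg2-KO libraries are mostly above WT libraries except at Col8a1, and WT 5 stands at 1211 for Pcolce.

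Other genes of collagen biology were counted from lists made from textbook roles. Of 139 such genes, 15 (10.8%) were in the table, against 6.63% of all genes the authors adjusted over, and 7 of the 15 were among the genes already described. A place in the table is itself the selection by genotype p, and the lists were made with earlier results known. The 139 genes were counted whether or not the authors adjusted over them, so the 10.8% and the 6.63% have unlike bases. Col6a4 was in none of the lists. In Cmg2-KO 12 of the 15 were higher and 3 lower, where 48.2% of all genes tested were higher and 51.8% lower. This tally repeats the 7 genes already described, so it is not separate from theirs. None of the 15 passed an adjusted p of 0.05 in limma. Among the 10 genes of propeptide removal only Pcolce and Tll1 were listed. Tll1, a BMP1-related proteinase whose family Pcolce enhances, went the other way from Pcolce, at 165 ± 41.5 scaled counts in Cmg2-KO and 217 ± 26.5 in WT (SD, n = 5 each; log2 fold change -0.42 ± 0.17, SE). P4ha3 was the only listed gene of 14 hydroxylases and glycosyltransferases, and 0 of 10 chaperone and export genes and 0 of 10 collagen receptors were listed. Loxl1, a cross-linking lysyl oxidase, was the only one of 6 cross-linking genes and averaged 3354 ± 164 scaled counts in Cmg2-KO and 2319 ± 420 in WT (SD, n = 5 each). In the authors' deposited table it was the 1 gene of these 15 whose adjusted p was below 0.05.

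Of 15 genes for collagen breakdown and its inhibitors, only Timp1, an inhibitor of matrix metalloproteinases, was listed, at 1091 ± 169 scaled counts in Cmg2-KO and 804 ± 130 in WT (SD, n = 5 each; log2 fold change 0.44 ± 0.13, SE). Among 16 fibril-binding proteins, 3 were listed and went both ways. The fibril-spacing proteoglycan Dcn was lower, at 1159 ± 293 in Cmg2-KO and 2196 ± 988 in WT (SD, n = 5 each), with a log2 fold change of -0.84 ± 0.28 (SE). Its relative Fmod was higher, at 2722 ± 628 in Cmg2-KO and 1905 ± 272 in WT (SD, n = 5 each), and so was the adhesive glycoprotein gene Thbs1, at 1325 ± 487 in Cmg2-KO and 935 ± 268 in WT. The TGF-β list had 2 of 14, Tgfbr1 and Ltbp1, both higher, with log2 fold changes of 0.27 ± 0.09 and 0.25 ± 0.10 (SE). Of the 11 fibrillar chains only Col11a1 was listed, so the main lung chains of types I, III and V were not analysed here.

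Whether the genes varied together from library to library was asked after subtracting each genotype's mean from the log2 values, which removes the contrast that chose them. Of 28 pairs, 17 correlated positively, with a median Pearson r of 0.22, against 0.01 over all pairs of symbol-bearing genes in the table. Of those 486591 pairs, 248267 correlated positively. The strongest pair was Col8a1 with Col16a1, with Pearson r = 0.89 over 10 libraries (exact permutation within genotypes, p = 0.000764, adjusted p = 0.0214 over the 28 pairs) and Spearman rho = 0.85 (exact permutation p = 0.00236, adjusted p = 0.0661). It was 0.78 without Cmg2-KO 4 and WT 3, the libraries farthest from the median of Col8a1, and between 0.82 and 0.88 under other library scalings. By Pearson r these chains tracked one another within each genotype while their genotype means lay in opposite directions. By Spearman rho the pair did not pass after adjustment. No other pair passed after adjustment by either measure. By Pearson r 2 of the 28, this pair among them, had an unadjusted exact permutation p under 0.05. Over all pairs of symbol-bearing genes r ran from -0.99 to 0.99. The permutation p was not computed for those pairs, so the count of 2 has no background share beside it. For Col8a1 and Col8a2 r was -0.26 over both genotypes, with 0.76 among Cmg2-KO and -0.98 among WT libraries. Cmg2-KO 4 was highest in both chains among Cmg2-KO libraries. Among WT libraries WT 2 and WT 3 were lowest in Col8a1 and highest in Col8a2. Such a change of sign was not particular to this pair. It also occurred for Col8a2 with Col16a1 (0.79 and -0.88) and for Col6a4 with Pcolce (0.8 and -0.9). With 5 libraries per genotype these differences were not tested.

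**Figure D4:**
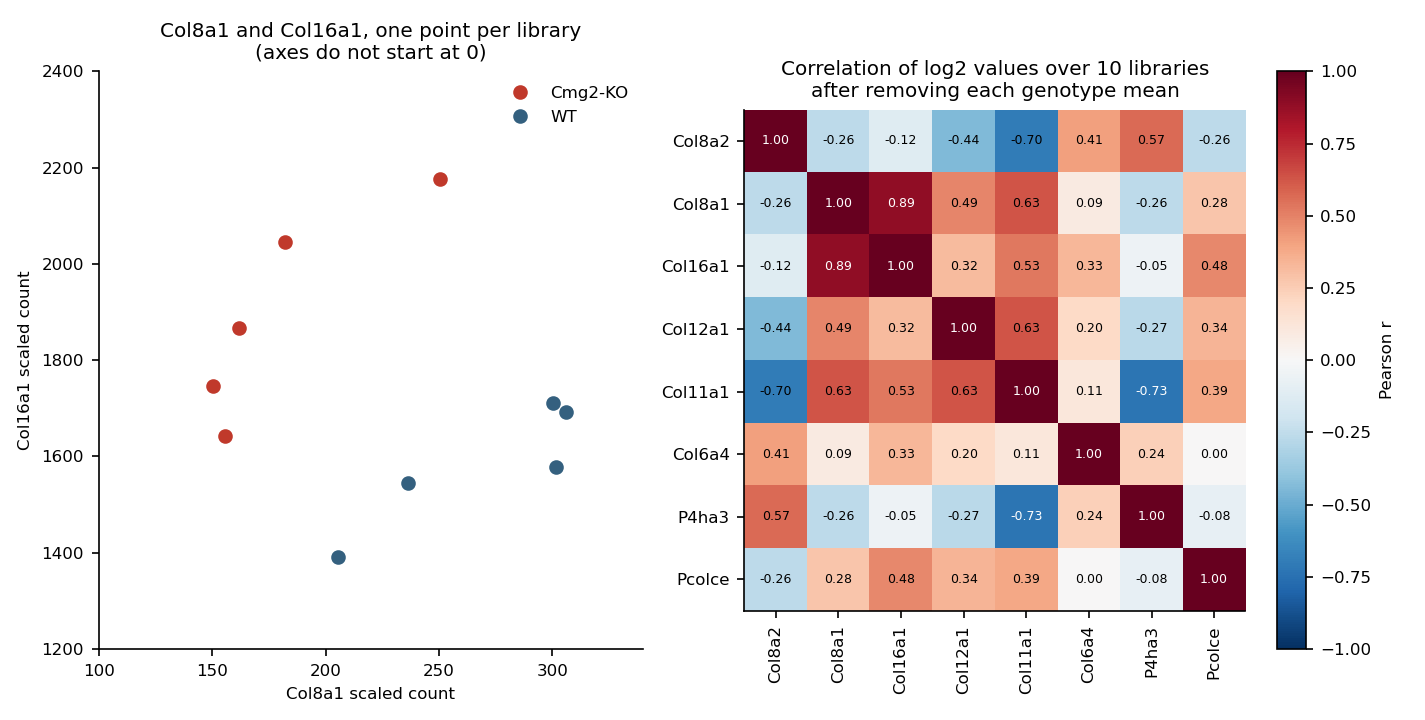
Left, scaled counts of Col16a1 against Col8a1, 1 point per library, where the genotypes overlap on each axis and libraries with more Col8a1 tend to have more Col16a1 within each genotype. Right, Pearson r of log2(scaled count + 1) over 10 libraries after removing genotype means for all pairs of the 8 genes, with the highest r, 0.89, for Col8a1 and Col16a1.

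The genes of the table with the most similar library-to-library pattern were taken by the same measure, with no test. For Col8a1 they were the scavenger receptor gene Scara5 (r = 0.94), Col16a1 (0.89) and the growth factor gene Ptn (0.86). For Col16a1 they were the Notch ligand gene Dll4 (0.93), Col8a1 and the complement protease gene C1r (0.85). For Col12a1 they were C7, Igsf10 and Sh3d19, each at 0.90. For Col8a2 they were Faah and Srrm3, both at 0.84, and Zbtb25 at 0.80. For Pcolce they were Ehd2 and Unc5d, both at 0.93, and Maged2 at 0.89. Those of Col6a4 and P4ha3 were led by Scd (0.85) and Rras2 (0.85). All pairs share libraries and scaling.

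Levels of different genes were compared per kb of gene length. In Cmg2-KO lung the order ran from Pcolce at 645 ± 55.3 scaled counts per kb through Col12a1 at 507 ± 70.2, Col16a1 at 362 ± 41.5, P4ha3 at 276 ± 22.1, Col6a4 at 158 ± 32.2, Col8a2 at 79.0 ± 8.02 and Col8a1 at 41.6 ± 9.51 to Col11a1 at 1.75 ± 0.704 (SD, n = 5). In WT lung it ran from Pcolce at 529 ± 119 scaled counts per kb through Col12a1 at 411 ± 49.3, Col16a1 at 302 ± 24.6, P4ha3 at 225 ± 39.6, Col6a4 at 123 ± 10.1, Col8a1 at 62.3 ± 10.7 and Col8a2 at 57.2 ± 9.92 to Col11a1 at 0.671 ± 0.586 (SD, n = 5). The order differed only for the type VIII chains. Pcolce and Col12a1 in WT, and Col8a1 and Col8a2 in WT, differed by less than the larger SD of the pair, and each other neighbour in either order differed by more.

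**Figure D5:**
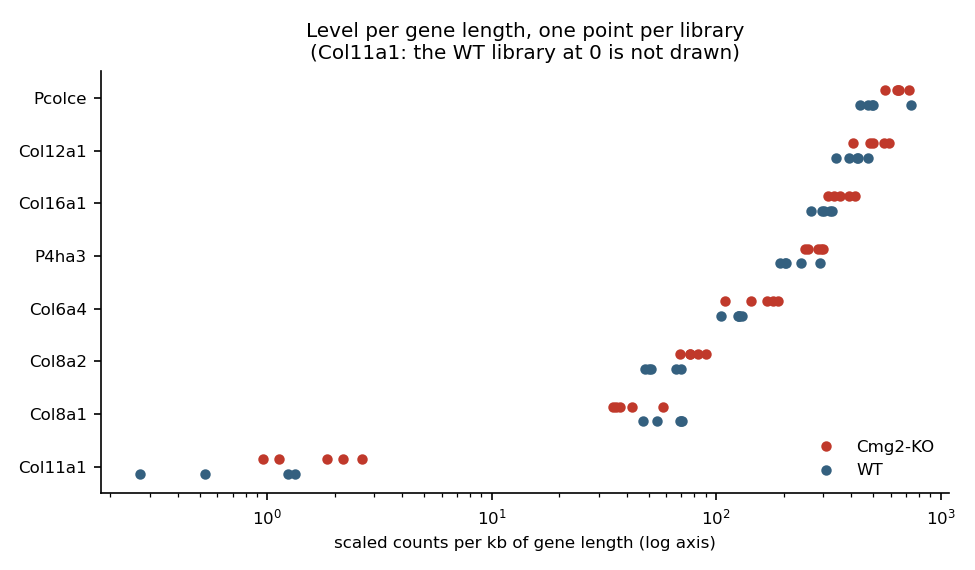
Scaled counts per kb of gene length on a log axis, 1 point per library, Cmg2-KO above WT in each row. Pcolce is highest and Col11a1 lowest in both genotypes, and in Cmg2-KO Col8a2, at 79.0 ± 8.02 per kb, lies above Col8a1, at 41.6 ± 9.51 per kb (SD, n = 5).

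Markers of other lung cell types were also in the table, where they stand because of the same genotype contrast. None passed an adjusted p of 0.05 in limma and 1, Ccl11, did in the authors' deposited table, and the summed level of each list with a listed gene overlapped between genotypes. In whole-lung RNA fewer cells of a type and less RNA per cell cannot be told apart. Of 14 fibroblast markers 4 were listed, Ccl11, Scara5 and Pi16 lower and Wt1, which is also a mesothelial marker, higher, and their sum was 1160 to 2052 scaled counts in Cmg2-KO and 1804 to 3491 in WT. Within genotypes Col8a1 had Pearson r = 0.94 with Scara5 (exact permutation p = 0.00236, adjusted p = 0.0189 over 8 pairs) and Spearman rho = 0.83 (exact permutation p = 0.00806, adjusted p = 0.0645). That r was 0.88 without Cmg2-KO 4 and WT 3. Scara5 was also the most similar to Col8a1 of all symbol-bearing genes in the table. The adjustment over 8 pairs does not cover that search, so these p-values are only a description. With Pi16, Ccl11 and Dcn the r of Col8a1 was 0.59, 0.67 and 0.64, and none passed after adjustment (adjusted p = 0.165, 0.155 and 0.165, exact permutation). These 4 genes were all lower in Cmg2-KO, as Col8a1 was. They left out the listed marker Wt1, which was higher, and took in Dcn from the fibril-binding list. The r of Col8a2 with the same 4 genes ran from -0.62 to -0.12, and none passed (exact permutation, lowest adjusted p = 0.178). With Scara5, Pi16 and Dcn the r of Col8a2 was positive among Cmg2-KO and negative among WT libraries.

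Of 12 smooth muscle markers 8 were listed, all lower, with a sum of 24491 to 36826 scaled counts in Cmg2-KO and 29743 to 49069 in WT. Of 10 mesothelial markers 6 were listed, all higher, with a sum of 3655 to 6264 in Cmg2-KO and 2885 to 5110.1 in WT. As a description over the same 10 libraries, which share scaling, the within-genotype r of the mean mesothelial level ran from -0.41 with Col12a1 to 0.74 with Col6a4 over the 8 genes, and was 0.63 with Col8a2. That of the mean smooth muscle level ran from -0.33 to 0.35, and that of the mean fibroblast level from -0.26 with Pcolce to 0.72 with Col8a1. Col8a1 also had r = 0.76 with the mean of the listed club cell markers and -0.75 with the listed endothelial marker Tie1. No listed fibroblast, smooth muscle or mesothelial marker was at 0 in any library, and the part of these cell types in the collagen differences was not tested. Endothelial markers had 1 of 7 listed, alveolar type 2 markers 1 of 7 and club cell markers 2 of 5, all lower in Cmg2-KO, and macrophage markers 0 of 7.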

How the data were processed

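Lung RNA was extracted with Trizol and made into NEBNext Ultra libraries, per the labels' protocols. The submitters' processing notes name HISAT2 2.0.5 and featureCounts 1.5.0-p3, for alignment and counting. The sources used here give neither the genome build nor the software that made the p-values. The kit as named does not state strand, so overlapping and antisense reads may be counted together. The deposited library columns hold a signal, reads divided by a size factor, understood from the values. All were whole multiples of 1 read (0.869 to 1.11 scaled counts) within 0.02 reads. The deposited table also holds group means, a log2 fold change, a fold (ratio), p-values and gene length, per the file headers. Its adjusted p-values correspond to 19894 genes, of which 6.63% are listed.

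Fits used limma 3.58.1 (R 4.3.3, trend and robust) on log2(scaled count + 1) for the 1308 genes above 0.5 in at least 5 libraries, with Benjamini-Hochberg adjustment over 19894 genes, and were tested on simulated data. Fold changes are Cmg2-KO over WT and, for low genes, depend on the pseudocount. Variances come from genes selected for this contrast. Count alternatives were edgeR 4.0.16 and DESeq2 1.42.0 on whole reads of 9 libraries. WT 4, with a step of 1.01, was left out of them, although its values too were whole multiples of 1 read. Named genes were all 8 members, up to 4 listed genes per list by mean level, and the 3 most similar genes by residual correlation, and a few results under this rule are not reported here. The members, lists and tests were chosen with earlier results of these data known. Replicate numbers were not treated as pairing the libraries.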

Additional observations from a re-analysis of the deposited data

Results flagged for a closer look

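Each genotype's 5 libraries of the 8 genes, 16 groups in all, were examined by Dixon's criterion, which marks a library if the gap to its nearest neighbour in log2 value exceeds 0.71 of the whole range. It picked out 2 groups, where chance at 1 in 20 gives about 0.8. Both were in the library WT 5. Pcolce stood at 1210.5 scaled counts in WT 5 and at 721 to 820.4 in the other WT libraries, and its log2 fold change was 0.43 without WT 5. Col6a4 stood at 667.8 in WT 5 and at 790.3 to 829.7 in the other WT libraries, and its log2 fold change was 0.28 without WT 5.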

How the results depend on the processing

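The direction of each gene held under every alternative run that kept the gene. The alternatives were pseudocounts of 0.5 and 8, other filters, quantile and TMM scaling, edgeR, DESeq2, adjustment over the listed genes only, a replicate block and leaving out each library. Adjustment over the listed genes only and the replicate block cannot change a fold change in this balanced design. The 8 genes were also selected for this contrast, so a held direction is only a description. The count of genes past an adjusted p of 0.05 was 0 in limma and 2, Col8a2 and Col8a1, when adjusted over the listed genes only, which were selected for this contrast. The median log2 fold change ranged from 0.28 to 0.35 without 1 library and from 0.27 to 0.31 under the rest. A mean of at least 50 scaled counts removed Col11a1 and left 6 higher genes. Genes without overlap between genotypes numbered 0 with all libraries and between 0 and 3 without 1 library, where 264 to 342 of the 1319 listed genes (at most 25.9%) had no overlap. They were Col8a2, Col16a1 and Col6a4 without Cmg2-KO 1, Col12a1 without Cmg2-KO 3, Col8a1 without Cmg2-KO 4, Col8a2 and P4ha3 without WT 3, and Pcolce without WT 5. Over all tested genes, limma passed 3, against 0 with the mean filter or the replicate block, 5 with quantile scaling, 1 in edgeR, 48 in DESeq2, 257 adjusted over the listed genes only, and 1 to 6 without 1 library. With the replicate block the median stayed at 0.31 by design, and 0 of the 8 genes passed. Its SE was lower than in the main fit for Pcolce (0.08), Col8a1 (0.13), Col16a1 (0.07), P4ha3 (0.09) and Col11a1 (0.55). For Col8a2, Col12a1 and Col6a4 the SE was the same. The same-numbered libraries had residual correlations between -0.0156 and 0.0873, and differently numbered ones between -0.145 and 0.0744. All were small, so the numbers were not treated as pairs, but these values cannot exclude pairing. Library scalings other than the authors' for the covariation of Col8a1 and Col16a1, and leaving out libraries for the ratio of Col8a1 to Col8a2, were chosen after seeing the data. The unknown total depth limits low genes most, with Col11a1 resting on at most 23 reads per library.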
